A study of Mus musculus with 17 samples.

Results

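The 10 genes described here are S100a8, S100a9, Ltf, Camp, Ngp, Lcn2, Mmp8, Mmp9, Csf3r and Retnlg, genes that are known for their expression in neutrophils and that encode S100 proteins, granule proteins, granule metalloproteinases, a cytokine receptor and a secreted factor. They were taken by name, with no threshold on a measured value but with earlier results of these data known, from the 17555 genes present in at least 1 of the 3 tables analysed. All 10 had a row in the tumor cell table and in the MDM table, and 8 had a row in the TRM table, in which Camp and Mmp9 had none. Every member with a row passed the filter on low values, at least 1 RPKM (reads per kilobase of gene, divided by library depth) in at least 2 of the 4 libraries of a table. In tumor cells, Camp and Mmp9 were under 1 RPKM in both KL libraries and passed through the KLG4 libraries alone, and Mmp8 passed with 1 KL library under 1 RPKM.

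Cells were isolated from tumor-bearing lungs of mice and profiled by bulk mRNA sequencing. KL mice develop lung tumors once Cre acts on their alleles, floxed Lkb1 (Lkb1fl/fl) among them, and KLG4 mice carry in addition a Gpx4 allele (Gpx4m/m) from which exons can be removed by a tamoxifen-dependent Dre recombinase that is itself switched on only in cells that met Cre. Mice of both genotypes received adenoviral Cre (Ad-Cre) through the nose, and both received tamoxifen, so the treatments were the same in both. Per the methods of the study, mice were 8 to 10 weeks old at tumor induction and sex-matched, and the labels place the isolation 10 weeks after Ad-Cre. For each of 3 populations, labelled tumor cells, TRMs and MDMs (the study's abbreviations for its macrophage populations), 2 libraries per genotype were used, 12 in all, and 5 samples of other populations were left aside. The study describes its tumor cells as CD45-CD31-EpCAM+, although one passage of its methods prints CD45.2+, and the gates for TRMs and MDMs were not given in the sources used here. As many mice per group as libraries are stated for the tumor cell sequencing, but the labels do not say whether replicates came from separate animals or from pools, so p-values measure the spread between these libraries, which may be technical.

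Neutrophils store antimicrobial and matrix-degrading proteins in granules that are filled in sequence while the cell matures in the bone marrow: azurophil granules at the promyelocyte stage, specific granules at the myelocyte stage and gelatinase granules later. Genes of specific granule proteins are therefore transcribed mainly in precursors, whereas S100a8, S100a9 and Csf3r transcripts remain abundant in the mature cell. In lung tumors of mice, neutrophils are a common infiltrating cell, and some of these proteins, lactoferrin and lipocalin 2 in particular, are also made by epithelial cells.

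The members lie on 5 chromosomes (GRCm38, GENCODE M21 annotation), and no other annotated gene overlaps any of them. S100a8 (chr3:90668978-90670035, plus strand) and S100a9 (chr3:90692632-90695721, minus strand) are neighbours in the S100 gene cluster, with 22596 bases between them. Mmp8 (chr9:7558456-7568485, plus strand), Camp (chr9:109847379-109849617, minus strand), Ngp (chr9:110419747-110423012, plus strand) and Ltf (chr9:111019271-111042767, plus strand) are on chromosome 9, with 570129 bases between Camp and Ngp and 596258 bases between Ngp and Ltf. Lcn2 (chr2:32384633-32388252, minus strand) and Mmp9 (chr2:164940780-164955850, plus strand) are on chromosome 2, Csf3r (chr4:126024550-126044440, plus strand) is on chromosome 4 and Retnlg (chr16:48872621-48874496, plus strand) is on chromosome 16.

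Granule genes are known targets of C/EBP and PU.1 transcription factors, so the bases upstream of each start were searched for short motifs of these factors. The RefSeq promoter table (GRCm38.p6) held 9 of the 10 genes. In the 250 bases before the start, the C/EBP-type motif TTGCNNAA, read on both strands, was present in 6 of the 9 (S100a9, Ltf, Ngp, Lcn2, Mmp8 and Retnlg), against 9.56% of all 32851 promoters in the table. The PU.1-type motif GAGGAAG, on either strand, was present in 4 of the 9 (S100a8, Lcn2, Mmp8 and Csf3r), against 10.6% of promoters. The TATA-type motif TATAAA was present in S100a8 alone among the 9, against 12.4% of promoters. The matches outside annotated exons are shown with up to 30 bases on either side, read 5′ to 3′ on the strand of the gene, with the match in capitals, to show the letters around each match.
S100a9, C/EBP type, chr3:90695920-90695971, minus strand: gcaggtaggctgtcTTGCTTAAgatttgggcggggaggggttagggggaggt
Mmp8, C/EBP type, chr9:7558380-7558428, plus strand: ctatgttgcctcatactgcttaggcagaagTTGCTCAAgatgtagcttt
Ngp, C/EBP type, chr9:110419640-110419707, plus strand: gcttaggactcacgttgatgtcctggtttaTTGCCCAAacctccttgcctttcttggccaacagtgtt
Ltf, C/EBP type, chr9:111019187-111019254, plus strand: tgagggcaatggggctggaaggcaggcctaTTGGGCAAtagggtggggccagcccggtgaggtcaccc
Retnlg, C/EBP type, chr16:48872358-48872399, plus strand: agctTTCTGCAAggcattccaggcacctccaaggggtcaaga
S100a8, PU.1 type, chr3:90668870-90668936, plus strand: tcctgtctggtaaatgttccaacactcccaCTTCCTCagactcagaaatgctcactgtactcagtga
Mmp8, PU.1 type, chr9:7558179-7558245, plus strand: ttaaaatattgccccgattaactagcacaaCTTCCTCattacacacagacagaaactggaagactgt
In Ltf and Retnlg the C/EBP-type match is on the opposite strand, as are both PU.1-type matches shown. A match describes the letters of a window and is not evidence of binding.

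Libraries differed in ways that touch the values. Depth, recovered from the steps of the RPKM values, was 15.9 to 36.6 M (megareads) in tumor cells, 9.14 to 26.8 M in TRMs and 10.4 to 26.1 M in MDMs. The targeted gene, Gpx4, was at 95 and 76.8 RPKM in KL tumor cells and 56.4 and 61.9 RPKM in KLG4 tumor cells. Its values were also lower in KLG4 TRMs (89.8 and 88.2 RPKM in KL, 53.8 and 57.0 RPKM in KLG4) and higher in the KLG4 libraries labelled MDMs (44.9 and 71.3 RPKM in KL, 93.6 and 97.7 RPKM in KLG4), neither at an adjusted p under 0.05 in limma. The 2 KLG4 tumor cell libraries differed from each other far less than any other pair of replicates (chi-square per gene of 3.28, against 28.9 to 131.6 in the other 5 pairs). Mitochondrial genes took 4.21% and 5.12% of reads in KL tumor cells and 8.95% and 8.88% in KLG4 tumor cells. With depth taken without these genes, the median log2 fold change of KLG4 over KL was 3.23 over the members, against 3.16 with them. Over all genes it was -0.03, against -0.09. In TRMs, mitochondrial genes took 13.2% and 9.17% of reads in the KL libraries and 1.43% and 2.40% in the KLG4 ones, and the X-inactivation transcript Xist was at 0.257 and 0.501 RPKM in the KL libraries and at 18.3 and 20.2 RPKM in the KLG4 ones, so sex and genotype cannot be told apart there. All 4 tumor cell libraries held both Xist (4.17 to 6.18 RPKM) and the Y-linked gene Eif2s3y (7.27 to 9.26 RPKM). MDM KL replicate 2 had Xist at 0.839 RPKM, against 19.4 to 21.8 RPKM in the other 3 MDM libraries.

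The libraries labelled MDMs held markers of several cell types, neutrophil genes among the highest. S100a9 was the highest of all genes in 3 MDM libraries and the second highest in KL replicate 2. Over 12 neutrophil markers that are not members, summed levels were 1225, 856, 1139 and 1168 RPKM in KL replicates 1 and 2 and KLG4 replicates 1 and 2, among them the chemokine receptor Cxcr2 (61.3 to 95.9 RPKM), the decoy receptor Il1r2 (228 to 317 RPKM) and Stfa2l1 (324 to 485 RPKM). Over 8 markers of monocyte-derived macrophages, summed levels were 59.1, 314, 85.4 and 81.5 RPKM in the same order, and the monocyte marker Ly6c2 was under 1 RPKM in every MDM library. Over 10 alveolar macrophage markers, summed levels were 1268, 2338, 1404 and 1555 RPKM, above the neutrophil markers in each library, with Ear2 at 375 to 1239 RPKM and Chil3 at 619 to 892 RPKM making up most of them. Chil3 is also on the list of other granule proteins used below. Without it, the alveolar macrophage markers would sum to less than the neutrophil markers in every MDM library except KL replicate 2. These libraries are called the libraries labelled MDMs below. In bulk libraries, more cells of a type and more RNA per cell cannot be told apart.

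Levels of the members set the 3 populations apart by a wide margin. The tables were normalised separately, so levels in different tables are set side by side without a test. Over the 8 members present in all tables, the mean of log2(RPKM + 0.1) was 2.14 to 3.0 in the TRM libraries, 3.27 and 3.97 in the KL tumor cell libraries, 6.41 and 6.35 in the KLG4 tumor cell libraries, and 7.31 to 8.50 in the libraries labelled MDMs. The members took 0.676% to 1.43% of all counted reads in the libraries labelled MDMs, 0.165% and 0.126% in KL tumor cells, 0.299% and 0.301% in KLG4 tumor cells, and 0.00881% to 0.0179% in TRMs. The 2 KLG4 tumor cell libraries thus lay between their KL counterparts and the libraries labelled MDMs.

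**Figure D1:**
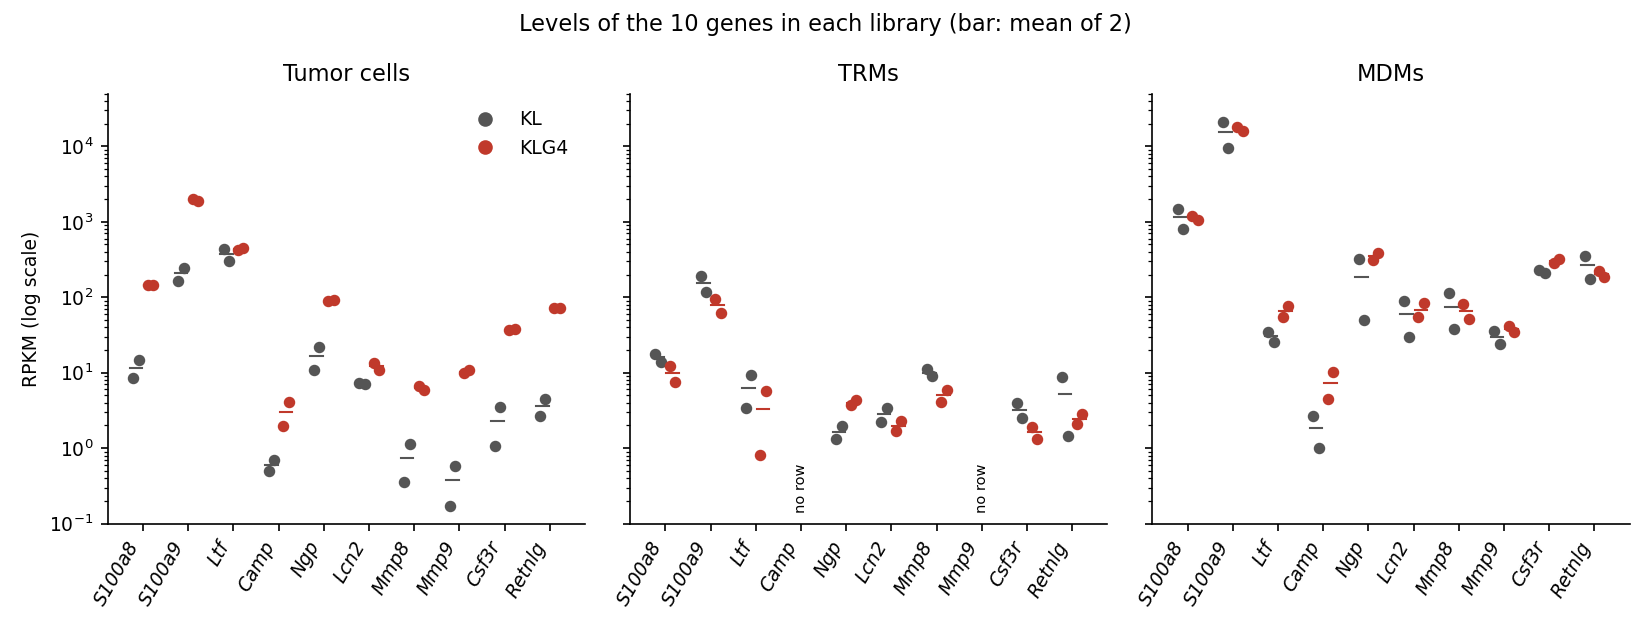
RPKM of the 10 genes in each library on a log scale, with 1 panel per population, grey points for KL, red points for KLG4 and a bar at the mean of each group of 2. In tumor cells both KLG4 points sit above both KL points for every gene except Ltf, S100a9 reaches 21106 RPKM in the MDM panel, and Camp and Mmp9 have no row in the TRM table.

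The first comparison asked how the genes differ between KLG4 and KL tumor cells. In limma, 9 of 10 members were higher in KLG4 at an adjusted p under 0.05, where 20.6% of the 13770 genes tested were, and 8 of 10 passed the threshold of the study (unadjusted p under 0.05 and at least 2-fold), where 16.6% of genes were higher by that rule. For 9 of 10 members, both KLG4 libraries were above both KL libraries, against 32.5% of genes. The median log2 fold change was 3.16 over the members, with a range from 0.25 to 4.61, and -0.09 over all genes tested. Camp and Mmp9, under 1 RPKM in both KL libraries, had to be higher in KLG4 to pass the filter, so these counts and the median describe the list and support nothing further.

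Among the S100 genes, S100a8 and S100a9 encode the subunits of calprotectin, a calcium- and zinc-binding protein that is abundant in neutrophil cytosol. S100a9 was at 166 and 248 RPKM in the KL libraries and at 1983 and 1886 RPKM in the KLG4 libraries. The groups were far apart, with means of 207 ± 58.1 and 1935 ± 68.5 RPKM (SD, n = 2), and S100a9 ranked 28th and 29th of all genes in the KLG4 libraries and 377th and 210th in the KL ones. The difference was larger than the spread between replicates (log2 fold change 3.25, standard error 0.21, adjusted p = 0.00042 in limma). S100a8 was at 8.46 and 14.6 RPKM in KL and at 147 and 145 RPKM in KLG4. Its means differed 12.7-fold (log2 fold change 3.70, standard error 0.26, adjusted p = 0.00051 in limma). Both genes were higher in each KLG4 library than in either KL library.

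Csf3r, the receptor for granulocyte colony-stimulating factor, was at 1.07 and 3.56 RPKM in KL and at 36.7 and 38.0 RPKM in KLG4. The KL libraries differed from each other by more than 3 times, and both stayed far under the KLG4 libraries (log2 fold change 4.17, standard error 0.52, adjusted p = 0.0027 in limma). Leaving out KL replicate 1 moved the log2 fold change to 3.35, and leaving out KL replicate 2 moved it to 4.99. Retnlg, a secreted resistin-like protein of neutrophils, was at 2.70 and 4.46 RPKM in KL and at 72.3 and 71.9 RPKM in KLG4. Its means differed 20.2-fold (log2 fold change 4.34, standard error 0.25, adjusted p = 0.00033 in limma).

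The specific granule genes were uneven. Ngp, neutrophilic granule protein, was at 10.7 and 22.2 RPKM in KL and at 89.9 and 91.5 RPKM in KLG4, a rise of 5.52-fold in the means (log2 fold change 2.55, standard error 0.33, adjusted p = 0.0033 in limma). Camp, which encodes the antimicrobial cathelicidin peptide, was low throughout, at 0.504 and 0.698 RPKM in KL and at 1.94 and 4.14 RPKM in KLG4. These values rested on 14 and 16 reads in KL and on 26 and 50 reads in KLG4, and the log2 fold change was 2.08 (standard error 0.40, adjusted p = 0.012 in limma, and 0.0096 with no filter on low values, which it passed through KLG4 alone).

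Ltf and Lcn2 had the smallest differences. Ltf, lactoferrin, was at 440 and 305 RPKM in KL and at 427 and 445 RPKM in KLG4, so the groups overlapped. The log2 fold change of 0.25 had a 95% interval from -0.24 to 0.74 (adjusted p = 0.35 in limma). Ltf was the member with the highest level in KL tumor cells, ahead of S100a9, and it ranked between 113th and 168th of all genes in the 4 tumor cell libraries. Leaving out KL replicate 1 moved it to 0.52 (adjusted p = 0.0013), and leaving out KL replicate 2 moved it to -0.01. Lcn2, lipocalin 2, which binds bacterial siderophores, was at 7.42 and 7.05 RPKM in KL and at 13.5 and 10.8 RPKM in KLG4. Both KLG4 libraries were above both KL libraries, by the smallest margin among the members that passed (log2 fold change 0.73, standard error 0.16, adjusted p = 0.019 in limma).

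The metalloproteinases were nearly undetected in KL tumor cells. Mmp9, gelatinase B, was at 0.170 and 0.579 RPKM in KL, from 22 and 62 reads, and at 9.88 and 10.8 RPKM in KLG4. Its log2 fold change of 4.61 had a standard error of 0.45 (adjusted p = 0.0012 in limma, and 0.00085 with no filter on low values, which it passed through KLG4 alone). The size of this difference depended on the settings, at 3.06 with a pseudocount of 1 RPKM, 3.86 with quantile scaling and 5.08 with limma-voom, and its rank among the members did too, since Retnlg was at 4.02 and 4.29 in the first 2 of these. Mmp8, neutrophil collagenase, was at 0.360 and 1.15 RPKM in KL and at 6.66 and 5.85 RPKM in KLG4. The KL values rested on 32 and 84 reads, and the groups did not overlap (log2 fold change 3.07, standard error 0.48, adjusted p = 0.0058 in limma). Leaving out KL replicate 1 or 2 moved the log2 fold change to 2.35 or 3.78 for Mmp8 and to 3.94 or 5.28 for Mmp9.

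Because the KLG4 tumor cell libraries were so alike, the fit was repeated with their mean. With this pair averaged and counted as 1 sample, 7 of 10 members were higher at an adjusted p under 0.05, where 11.5% of genes were. Lcn2 (log2 fold change 0.74, adjusted p = 0.13) and Mmp8 (3.07, adjusted p = 0.064) no longer passed, with fold changes close to those above. Leaving out KLG4 replicate 1 gave adjusted p-values of 0.20 for Lcn2 and 0.066 for Mmp8, and leaving out KLG4 replicate 2 gave 0.089 for Lcn2, 0.060 for Mmp8 and 0.060 for Camp.

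**Figure D2:**
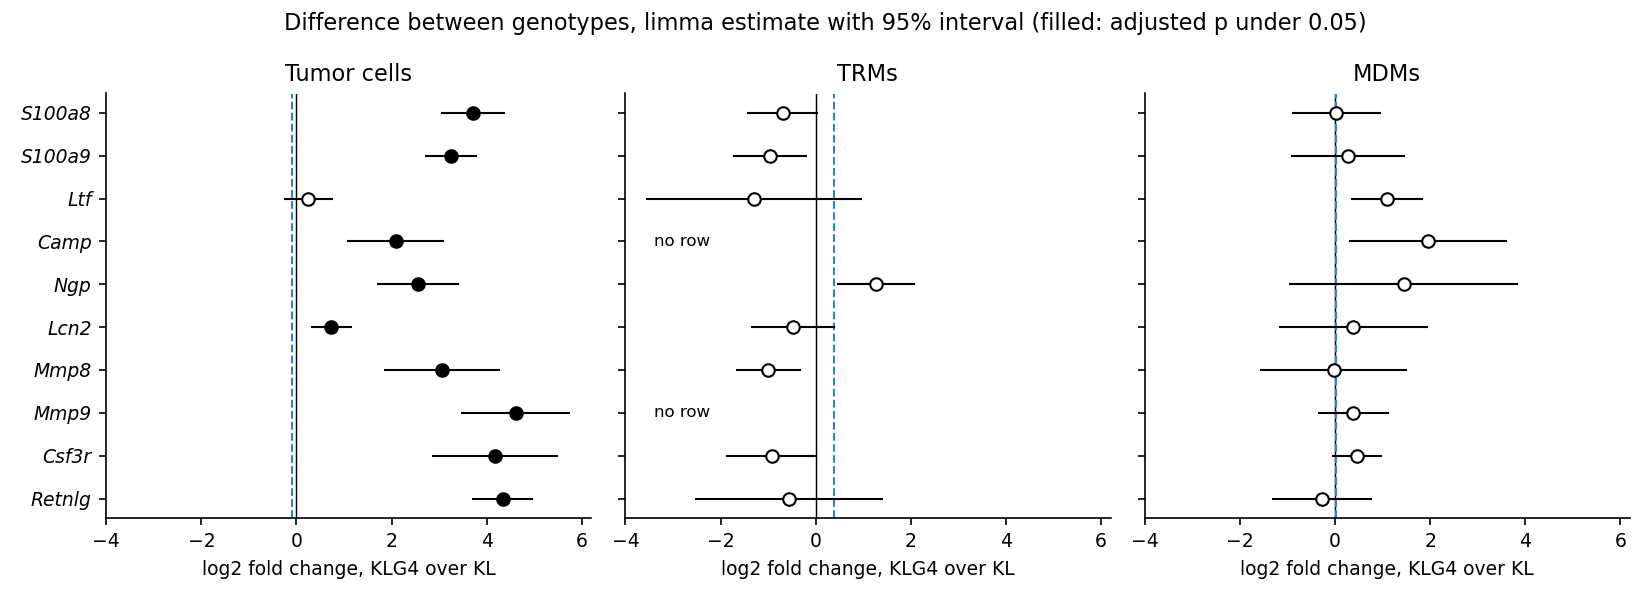
Log2 fold change of each gene between KLG4 and KL with its 95% interval from limma, 1 panel per population. Filled points have an adjusted p under 0.05, the solid line marks 0, the dashed line marks the median over all genes tested (-0.09, 0.38 and 0.02 from left to right), and points are filled in the tumor cell panel alone.

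Genes of other cell types moved in the same tumor cell libraries, and their part in the result was not tested. Leukocyte markers were all higher in KLG4 (4 of 4, summed levels 3.53 and 7.13 RPKM in KL against 82.0 and 84.8 RPKM in KLG4), among them Ptprc, the CD45 gene, at 0.834 and 2.06 RPKM in KL and 26.7 and 27.4 RPKM in KLG4 (log2 fold change 4.25, adjusted p = 0.0011 in limma). Of 12 neutrophil markers that are not members, 9 had a row in this table, Ly6g, Cxcr1 and Cebpe having none. All 9 had a positive log2 fold change, and 7 were higher at an adjusted p under 0.05, where 20.6% of all genes were (summed levels 19.9 and 30.7 RPKM in KL against 189 and 199 RPKM in KLG4). By the same rule, 6 of 6 markers tested of monocyte-derived macrophages, 6 of 9 of alveolar macrophages and 3 of 5 of monocytes were higher. So were 2 of 2 of eosinophils, 4 of 4 of T cells and 4 of 4 of B and plasma cells. Siglecf counted both for alveolar macrophages and for eosinophils. Some markers, Mmp25, Cxcr2, Mrgpra2b, Cd3e and Cd4 among them, were under 1 RPKM in both KL libraries and passed the filter through KLG4 alone. Summed B and plasma cell markers were at 0.581 and 1.38 RPKM in KL and at 117 and 126 RPKM in KLG4, and summed T cell markers were at 1.15 and 1.21 RPKM against 23.0 and 27.3 RPKM. The eosinophil granule gene Prg2 was listed at 0 in both KL libraries, and Cd8a, Ms4a1 and Cd163 were among the markers listed at 0 in 1 KL library. All 8 epithelial markers were lower in KLG4 (summed levels 9648 and 8240 RPKM against 3881 and 3908 RPKM), with Epcam at 638 and 420 RPKM in KL and 215 and 211 RPKM in KLG4.

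Levels were also set against Ptprc in the same library. S100a9 was 199 and 120 times the level of Ptprc in the KL libraries and 74.2 and 69.0 times in the KLG4 libraries. S100a8 was 10.1 and 7.06 times Ptprc in KL and 5.50 and 5.29 times in KLG4, and Ngp was 12.9 and 10.7 times in KL and 3.36 and 3.35 times in KLG4, so these 3 ratios were lower in KLG4 while the levels were higher. Csf3r was at 1.29 and 1.73 times Ptprc in KL and at 1.37 and 1.39 times in KLG4, and Retnlg was at 3.23 and 2.16 times against 2.71 and 2.63 times, which overlapped. The ratio of Mmp9 was higher in KLG4 (0.370 and 0.397, against 0.204 and 0.281), while those of Mmp8 (0.249 and 0.214, against 0.432 and 0.555) and Camp (0.0727 and 0.151, against 0.605 and 0.338) were lower in KLG4 without overlap. The ratio of Ltf was 528 and 148 in KL and 16 and 16.3 in KLG4, and that of Lcn2 was 8.91 and 3.41 in KL and 0.506 and 0.396 in KLG4. These ratios were not tested.

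Lists of other neutrophil genes, compiled beside the members, were mostly higher in KLG4 tumor cells. Of 26 genes of mature neutrophils, 20 were tested and 17 were higher in KLG4 at an adjusted p under 0.05, where 20.6% of all genes were. The median log2 fold change over the 20 was 3.47. Cxcr2, Mrgpra2b, Fpr1 and Fpr2 were under 1 RPKM in both KL libraries and passed the filter through KLG4 alone. This count and median therefore only describe the list. The cytokine Il1b was at 15.7 and 31.2 RPKM in KL and at 417 and 410 RPKM in KLG4 (log2 fold change 4.22), the C-type lectin Clec4d at 5.33 and 8.58 against 119 and 120 RPKM (4.12), and the protease Asprv1 at 1.09 and 1.84 against 24.1 and 25.1 RPKM (4.02). This list shares 9 genes with the neutrophil markers. Of 8 azurophil granule genes, 2 were tested and the protease inhibitor Serpinb1a was higher, at 8.74 and 5.55 RPKM in KL and 20.8 and 19.1 RPKM in KLG4, while the serine protease Prss57 was at 1.32 and 1.23 RPKM in KL and 1.75 and 1.48 RPKM in KLG4 (log2 fold change 0.32, adjusted p = 0.28 in limma). The other 6 genes of this list had no row in the table. Of 13 other granule proteins tested, 8 were higher and 1, Anxa1, was lower (1573 and 1077 RPKM in KL, 753 and 741 RPKM in KLG4), and summed over the list the levels were 2085 and 1682 RPKM in KL and 2192 and 2227 RPKM in KLG4.

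Most of the other S100 genes went the other way. Of 10 tested, 6 were lower in KLG4 and 1 was higher at an adjusted p under 0.05, with a median log2 fold change of -0.72. Over the whole table, 5543 of 13770 genes were called in either direction. S100a6 was at 308 and 180 RPKM in KL and at 71.4 and 77.7 RPKM in KLG4 (log2 fold change -1.66, adjusted p = 0.0059 in limma), S100a14 at 386 and 266 RPKM against 110 and 121 RPKM (-1.47), and S100a16 at 90.4 and 56.8 RPKM against 28.7 and 29.2 RPKM (-1.30). The 1 higher gene was S100a4, at 9.03 and 9.40 RPKM in KL and at 23.5 and 22.5 RPKM in KLG4 (1.31). S100a10 (log2 fold change 0.068), S100a11 (-0.44) and S100b (-0.19) did not pass.

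Ligands that draw neutrophils into tissue were higher in the KLG4 tumor cell libraries in 6 of 8 cases tested, and 1 was lower. Counts in this paragraph are at an adjusted p under 0.05 in limma, where 20.6% of all genes tested were higher. The chemokine Cxcl2 was at 98.6 and 178 RPKM in KL and at 1368 and 1343 RPKM in KLG4 (log2 fold change 3.36), Cxcl1 at 65.5 and 39.4 against 252 and 258 RPKM (2.32), and Il17a, which passed the filter through KLG4 alone, at 0.070 and 0 against 1.21 and 1.72 RPKM. Cxcl15, the lung chemokine of epithelium, was lower, at 82.1 and 80.0 RPKM in KL and at 45.0 and 52.5 RPKM in KLG4 (-0.74). Of 8 transcription factors of granulocyte formation tested, 6 were higher and none was lower, among them Spi1, which encodes PU.1 (1.67 and 2.98 against 26.3 and 26.7 RPKM), and Gfi1 (0.0168 and 0.0407 against 1.48 and 2.23 RPKM), which passed the filter on low values through KLG4 alone. Among receptors of member products, Ager, a receptor of S100 proteins and a marker of alveolar type 1 cells, was at 426 and 448 RPKM in KL and at 54.9 and 56.7 RPKM in KLG4 (-2.97), 1 of 3 lower and 3 higher among 6 tested. Of 12 other metalloproteinases and their inhibitors tested, 8 were higher and 1, Mmp14, was lower, with Mmp2 at 1.36 and 2.19 RPKM in KL and at 29.3 and 30.8 RPKM in KLG4 (4.04).

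**Figure D3:**
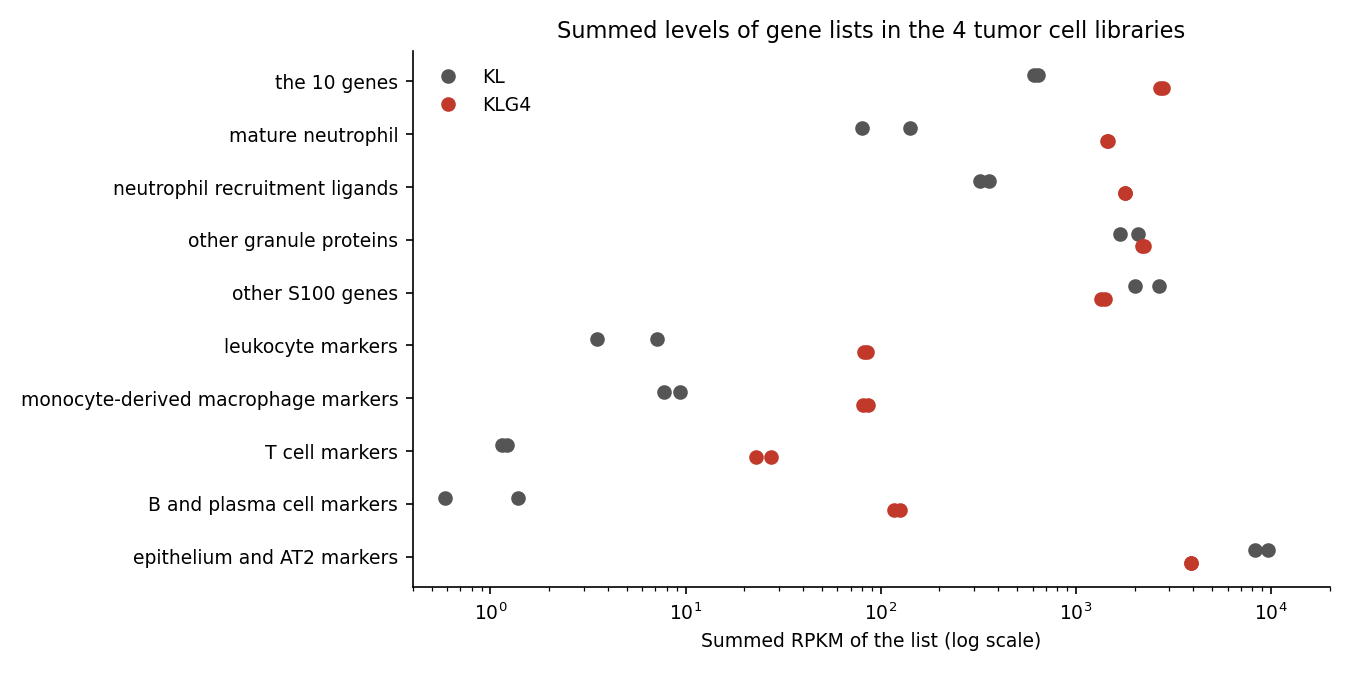
Summed RPKM of the 10 genes and of other gene lists in the 4 tumor cell libraries on a log scale, grey for KL and red for KLG4. The 10 genes sum to 637 and 607 RPKM in KL and to 2787 and 2709 RPKM in KLG4, leukocyte lists lie higher in KLG4, and epithelial markers and the other S100 genes lie lower.

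In TRMs, the libraries with the lowest mean level over the 8 members present in all tables, KLG4 was compared with KL in the same way. No member passed an adjusted p of 0.05 in limma (0 of 8, where 1.8% of 10990 genes did), 3 had an unadjusted p under 0.05, where 28.3% of genes did, and limma-voom on recovered reads with TMM factors called 2, where it called 7.24% of genes. At the threshold of the study 1 of 8 was higher and none was lower, where 12% of all genes were higher. Both KLG4 libraries were above both KL libraries for 1 member, against 53.7% of genes, and below them for 4 members, against 8.95% of genes. Over all genes the median log2 fold change was 0.38, and it was 0.02 with TMM factors and -0.00039 after rescaling to reads outside mitochondrial genes and their nuclear copies. Over the members it was -0.81, and -1.18 and -1.20 in those fits.

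Of 8 members, 7 had a lower mean in KLG4 TRMs, and for S100a8, S100a9, Mmp8 and Csf3r the groups did not overlap. S100a9 was at 191 and 116 RPKM in KL and at 93.9 and 61.9 RPKM in KLG4 (log2 fold change -0.96, interval -1.72 to -0.21, adjusted p = 0.12 in limma). S100a8 was at 17.9 and 14 RPKM in KL and at 12.4 and 7.60 RPKM in KLG4 (-0.70, adjusted p = 0.19). Mmp8 was at 11.1 and 9.02 RPKM in KL and at 4.10 and 5.96 RPKM in KLG4 (-1.0, adjusted p = 0.093), and it was the member whose TRM level came nearest to that of the libraries labelled MDMs, at 14.2% of their mean in KL. Csf3r was at 4.02 and 2.49 RPKM in KL and at 1.94 and 1.34 RPKM in KLG4 (-0.93, adjusted p = 0.18). With limma-voom, S100a9 (adjusted p = 0.033) and Mmp8 (adjusted p = 0.018) passed.

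Ngp went the opposite way in TRMs, at 1.31 and 1.97 RPKM in KL and at 3.73 and 4.32 RPKM in KLG4. It passed the threshold of the study (log2 fold change 1.27, unadjusted p = 0.0085) and not the adjusted one (adjusted p = 0.087 in limma), on 16 and 22 reads in KL and 122 and 62 reads in KLG4. The other 3 members overlapped between genotypes. Retnlg was at 8.88 and 1.44 RPKM in KL and at 2.09 and 2.80 RPKM in KLG4. Ltf was at 3.42 and 9.20 RPKM in KL and at 0.823 and 5.77 RPKM in KLG4, and Lcn2 was at 2.25 and 3.42 RPKM in KL and at 1.69 and 2.27 RPKM in KLG4. For Retnlg and Ltf, replicates of 1 genotype differed by more than the genotypes did.

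Without TRM KL replicate 2, 3 of 8 members passed an adjusted p of 0.05, where 21.7% of genes did, Retnlg (log2 fold change -1.83) and S100a9 (-1.32) lower and Ngp (1.54) higher. Other genes of neutrophils did not share 1 direction in TRMs. With all 4 TRM libraries, 2 of 19 genes of mature neutrophils tested were lower and 1 was higher at an adjusted p under 0.05, where 1.8% of all genes were called. The lower ones were the lipid-droplet regulator G0s2, at 24.2 and 19.3 RPKM in KL and 5.32 and 5.86 RPKM in KLG4, and Stfa2, at 5.67 and 3.62 against 0.177 and 0 RPKM. Neutrophil markers that are not members summed to 98.0 and 91.7 RPKM in KL and to 99.5 and 97.6 RPKM in KLG4, most of it Wfdc21 (60.8 to 65.0 RPKM). Alveolar macrophage markers summed to 8680 and 8589 RPKM in KL and to 12986 and 12138 RPKM in KLG4, and epithelial markers to 237 and 257 RPKM against 72.4 and 135 RPKM, and their part in the member values was not tested.

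In the libraries labelled MDMs, where all members except Ltf had their highest levels, no difference between genotypes passed the adjusted threshold. In limma 0 of 10 members did, as did 0% of the 10475 genes tested, with 2 members and 706 genes (6.74%) at an unadjusted p under 0.05 and 0 members and 0 genes called by limma-voom on recovered reads. At the threshold of the study 2 members, Ltf and Camp, were higher in KLG4, where 1.03% of genes were. Both KLG4 libraries were above both KL libraries for 3 members, Ltf, Camp and Csf3r, against 25.4% of genes, and the other 7 overlapped.

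Ltf was at 34.8 and 25.8 RPKM in KL and at 54.1 and 75.7 RPKM in KLG4 (log2 fold change 1.09, unadjusted p = 0.013, adjusted p = 0.68 in limma). Camp was at 2.70 and 1.02 RPKM in KL and at 4.45 and 10.1 RPKM in KLG4 (1.95, unadjusted p = 0.029, adjusted p = 0.68), on 38 and 8 reads in KL and 88 and 200 reads in KLG4. Csf3r was at 228 and 208 RPKM in KL and at 283 and 323 RPKM in KLG4, a difference of 1.39-fold in the means. Ltf and Camp were 2 of the 4 specific granule members. Of 9 transcription factors of granulocyte formation tested, 1 passed the threshold of the study, the repressor Gfi1, at 0.481 and 0.416 RPKM in KL and at 1.39 and 1.14 RPKM in KLG4.

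The other 7 members, S100a9 and S100a8 with the highest levels among them, overlapped between genotypes. S100a9 was at 21106 and 9379 RPKM in KL and at 17917 and 16079 RPKM in KLG4, and the 95% interval of the log2 fold change of 0.27 ran from -0.90 to 1.45. S100a8 was at 1490 and 804 RPKM in KL and at 1184 and 1054 RPKM in KLG4, and Retnlg was at 355 and 172 RPKM against 221 and 188 RPKM. Among these 7, Ngp had the widest range relative to its own level, at 324 and 49.7 RPKM in KL and at 312 and 384 RPKM in KLG4. Mmp8 was at 112 and 38.3 RPKM against 81.3 and 51.2 RPKM, Mmp9 at 35.7 and 23.9 RPKM against 41.8 and 34.7 RPKM, and Lcn2 at 89.3 and 29.4 RPKM against 54.0 and 83.6 RPKM.

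KL replicate 2 was the lowest of the 4 libraries labelled MDMs for all 10 members. It was the library with the highest levels of C1qa (92.7 RPKM, against 16 to 24.4 RPKM in the other 3), Cx3cr1 (42.0 against 5.07 to 7.23 RPKM) and the surfactant gene Sftpc (173 against 22.9 to 71.7 RPKM), and their part in its member values was not tested. Without KL replicate 1, which left this library as the only KL one, 4 of 10 members (Ltf, Camp, Ngp and S100a9) were higher in KLG4 at an adjusted p under 0.05, where 11.4% of genes were. Without KL replicate 2, 0 members passed, and the log2 fold changes of S100a9, S100a8 and Lcn2 were -0.31, -0.42 and -0.41.

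Levels relative to S100a9, taken within a library, do not depend on the scaling between tables. S100a8 was at 5.11% to 7.68% of S100a9 in tumor cells, 6.56% to 8.58% in the libraries labelled MDMs and 9.37% to 13.2% in TRMs. Csf3r was at 0.649% to 2.01%, 1.08% to 2.22% and 2.06% to 2.17% in the same order. Mmp8 was at 0.218% to 0.462% in tumor cells and at 0.318% to 0.532% in the libraries labelled MDMs, and at 4.36% to 9.63% in TRMs, a range that did not overlap with the others. Ltf was the opposite case, with 0.165% to 0.471% in the libraries labelled MDMs, 0.876% to 9.32% in TRMs, 21.5% and 23.6% in KLG4 tumor cells, and 266% and 123% in KL tumor cells. Lcn2 was at 4.48% and 2.84% in KL tumor cells, at 0.682% and 0.574% in KLG4 tumor cells, at 0.301% to 0.520% in the libraries labelled MDMs and at 1.18% to 3.67% in TRMs, which overlapped with KL tumor cells. In KLG4 tumor cells, S100a8 and Csf3r relative to S100a9 lay within the range of the libraries labelled MDMs, and the other members except Mmp8 lay above it, Ltf by the most.

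**Figure D4:**
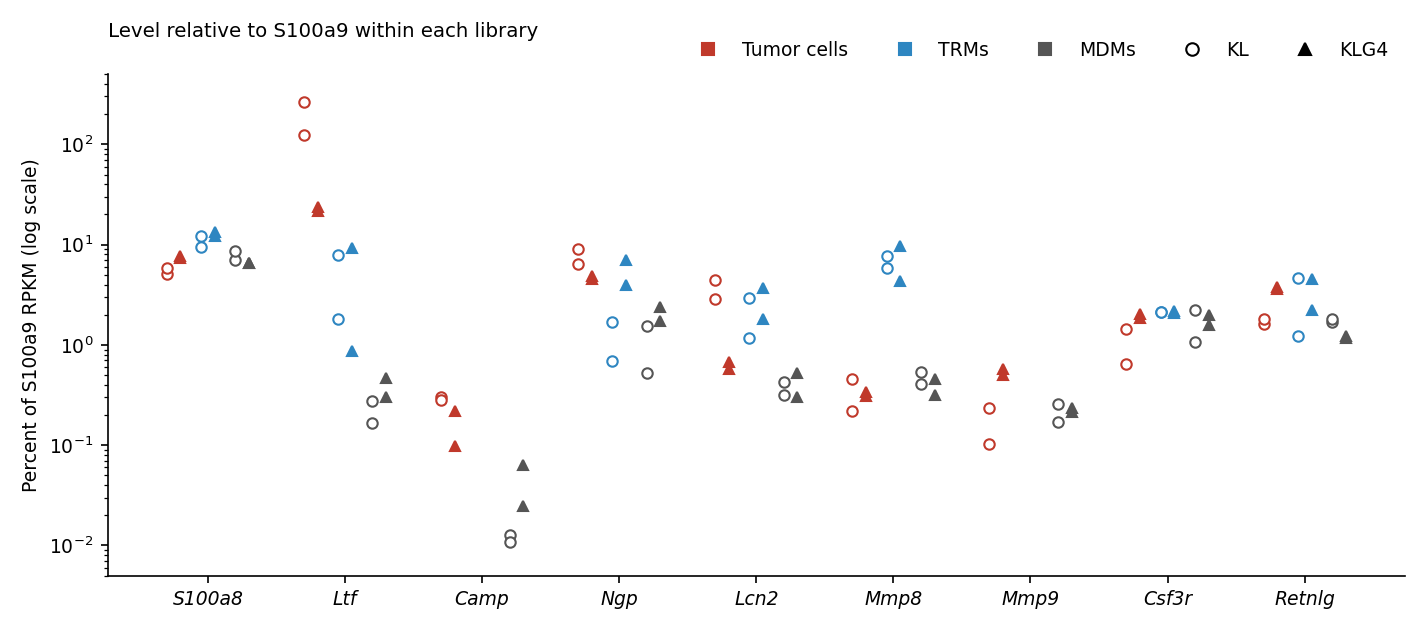
Level of each of the other 9 genes as a percentage of S100a9 in the same library, on a log scale, coloured by population, with open circles for KL and filled triangles for KLG4. S100a8 sits between 5.11% and 13.2% in all 12 libraries, Mmp8 is highest in TRMs, and Ltf in KL tumor cells stands above every other library.

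The first places in the order of the groups recurred among members, while the order of the lower groups differed between them. The libraries labelled MDMs were the highest groups for 9 of the 10 genes in at least 1 genotype, and in both for S100a8, S100a9, Ngp, Lcn2, Mmp8, Mmp9, Csf3r and Retnlg. KLG4 tumor cells came next for S100a9 (12% of the mean of the 4 libraries labelled MDMs), S100a8 (12.9%), Csf3r (14.3%), Lcn2 (19.0%), Mmp9 (30.4%), Retnlg (30.8%) and Ngp (33.9%). Apart from Ngp, whose level in MDM KL replicate 2 was below both KLG4 tumor cell libraries, these genes had no overlap between KLG4 tumor cells and the groups next to them in the order. For S100a8, Csf3r and Retnlg, KL tumor cells overlapped with the TRM groups on either side of them in the order, at a mean of 11.5, 2.32 and 3.58 RPKM. For Mmp8, KL TRMs (10.0 RPKM) were above KLG4 tumor cells (6.26 RPKM). For Ltf, KLG4 and KL tumor cells were highest and overlapped (means of 436 and 372 RPKM), at 916% and 782% of the mean of the libraries labelled MDMs.

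Across the 12 libraries, the genes most like the member mean were sought among 8401 genes with a row in all tables and at least 5 RPKM in at least 1 library, by Pearson's r of log2(RPKM + 0.1) with the mean of the 8 members in all tables. Among the 10 with the highest r were Hdc (r = 0.990), Inpp1 (0.990), Slfn4 (0.990), Il1f9 (0.988), Marcksl1 (0.988), Spata13 (0.987), St3gal6 (0.985), Rhov (0.980) and Acod1 (0.979). The libraries fall into separate populations from separately normalised tables, and r mostly reflects that order, so it is given as a description. Hdc, histidine decarboxylase, was at 230 to 248 RPKM in the libraries labelled MDMs, at 4.32 to 52.4 RPKM in tumor cells and at 0.985 to 3.68 RPKM in TRMs. Of the members themselves, S100a9 was nearest to their mean (0.992), Mmp8 (0.736) and Ltf (0.445) were farthest from it, and the other 5 were between 0.950 and 0.978.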

How the data were processed

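Bulk mRNA libraries (non-directional kit, paired-end reads) of tumor cells, TRMs and MDMs were used, 2 KL and 2 KLG4 per population, grouped by sample title. The labels and the study's methods describe the upstream steps. Reads were trimmed with Trim Galore 0.6.4, aligned with HISAT2 2.0.5 to mouse GRCm38 with Ensembl 94 annotation and counted with featureCounts 2.0.0, without strand. The authors deposited RPKM values in 1 table per population, with no factor between libraries, where the methods name FPKM. The TRM and MDM tables do not name their unit, which was taken as RPKM from the scale of the values and the recovered reads. The deposited fold changes, p-values, FDR and, in the TRM and MDM tables, logCPM and F columns of the authors were not used.

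Depth was recovered by multiplying RPKM by gene length: below 2000 reads, 100% of values were whole multiples of a step (tolerance 0.05). Mates were mostly both counted, so counting noise is larger than read numbers imply, and intervals cover the spread between libraries only. Each table was tested alone with limma 3.58.1 (R 4.3.3) on values log2-transformed after adding a pseudocount of 0.1 RPKM, letting the prior variance follow mean level. The test was two-sided, genes had to reach 1 RPKM in 2 or more of 4 libraries, and p-values were adjusted by Benjamini-Hochberg over all genes tested. Fold changes on this scale understate the change of low genes. The fit was first tested on simulated data. Tables were not fitted together. Fold changes of means are ratios of mean RPKM.

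The members and lists were chosen with earlier results of these data known. Named genes were the 10 members, genes of the lists, with at most 4 examples per list and population taken as those past the threshold with the largest change, Gpx4 and Ptprc as checks, and the 10 genes most like the member mean, which was taken over the 8 members in all tables in place of the 10 planned. Xist and the other genes named to describe single libraries were chosen after their values were seen. Some items that this rule names are not reported here. The replicate numbers did not pair the samples: replicate differences of the genotypes correlated at 0.019 in tumor cells, -0.06 in TRMs and 0.054 in MDMs. Alternatives tried were a pseudocount of 1 or 0.01 RPKM, no filter or a mean of 5 RPKM, TMM or quantile scaling, depth taken without mitochondrial (mt-) genes, no trend, limma-voom on recovered reads, the replicate block and leaving out each library. Depth taken without mt- genes and their nuclear copies, and averaging the KLG4 tumor pair, were added after the data were seen. Promoters and positions came from RefSeq (GRCm38.p6) and GENCODE M21 (GRCm38).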

Additional observations from a re-analysis of the deposited data

Results flagged for a closer look

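In 4 genes, KLG4 lay above KL without overlap in 1 population and below KL without overlap in another. Over all genes tested, 32.5% lay above in tumor cells, 25.4% above in the libraries labelled MDMs and 8.95% below in TRMs. The share of genes with both directions was not computed, so the number of members is not set against a background. The direction was opposite between tumor cells and TRMs for S100a8, S100a9, Mmp8 and Csf3r, whose log2 fold changes differed between these populations by 4.4011, 4.2192, 4.0665 and 5.1024. For Csf3r the libraries labelled MDMs also moved against TRMs, by 1.3993. These differences between populations were not tested, since the tables were normalised separately. In TRMs none of the 4 genes passed an adjusted p of 0.05 in limma, 2 of them (S100a9 and Mmp8) had an unadjusted p under 0.05, and sex and genotype cannot be told apart.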

How the results depend on the processing

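In tumor cells, 9 of 10 members were called under the alternatives that kept the libraries apart, except 7 of the 8 tested with a filter at a mean of 5 RPKM, which left out Camp and Mmp8, and 7 with the KLG4 pair averaged, and 6 to 10 when 1 library was left out. Ltf ranged from -0.013 to 0.52 over left-out libraries. The adjusted p of the other members ranged up to 0.13 over the settings that kept all libraries and up to 0.20 over those that left out 1. Over the whole tumor table, 5543 of 13770 genes were called, against 3284 of 7029 with a filter at a mean of 5 RPKM, 1923 with the KLG4 pair averaged and 1927 to 7372 when 1 library was left out.

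In TRMs, 0 members were called except by limma-voom (2) and without KL replicate 2 (3), so the range over left-out libraries was 0 to 3. Retnlg ranged from -1.83 to 0.71 and Ltf from -2.63 to 0.037. The number of genes called over the whole table moved from 198 to between 12 (no trend) and 772 (limma-voom), and to 2382 without KL replicate 2.

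In the libraries labelled MDMs, 0 members were called except without KL replicate 1, where 4 were (range 0 to 4) and 2682 genes passed over the whole table, against 0 otherwise. With 1 library left out, the median over members ranged from -0.11 to 0.80, and the log2 fold changes ranged from -0.80 to 0.25 for Retnlg, -0.31 to 0.86 for S100a9, -0.41 to 1.19 for Lcn2, -0.80 to 0.75 for Mmp8 and -0.42 to 0.47 for S100a8. Mmp8 turned from -0.02 to 0.0057 with quantile scaling, 0.047 with TMM factors and 0.049 with limma-voom, and S100a8 turned from 0.03 to -0.030 with depth taken without mt- genes and their nuclear copies. The cause was not tested.

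With the replicate block, 9 of 10 members were called in tumor cells and 0 in TRMs and MDMs, as without it, and 470 genes were called over the TRM table. The samples share only a number. Taking depth without mt- genes moved the mean member level in KLG4 tumor cells from 6.38 to 6.52 on the log2 scale, more than the spread of that close pair. With 2 libraries per group, left-out fits assume that the lone sample varies like the other group.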
